A study of Mus musculus with 33 samples.

Results

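The 10 ventricular heart muscle cells of E14.5 mouse embryos that were sorted as positive for mAG-hGem were divided into late and early cells of the cell cycle. The series holds 33 single cells in all. The division was chosen by a readout: in each cell the CPM (reads of a gene per 1000000 counted reads of the cell) of 6 mitotic genes, Ccnb1, Ccnb2, Cenpe, Plk1, Cdc20 and Aurka, were summed. The 5 cells with the highest sums were called late and the 5 with the lowest sums early. All 10 cells carried the mAG-hGem transgene of the FUCCI cell cycle reporter, a green fluorescent protein joined to part of human geminin, came from ventricles dissociated with enzymes, and were untreated as far as the labels say. Each had been accepted as a cardiomyocyte after PCR of its cDNA detected Tnnt2 and did not detect a marker gene of other heart cells. The E14.5 mAG-hGem negative cells (11) and the P5 mAG-hGem positive cells (6, postnatal day 5, same reporter) served only as reference levels. No animal or litter was named for any cell, and each cell was its own library.

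Geminin is made from S phase onwards and is destroyed in mitosis by the anaphase promoting complex, so a cell with green signal can be anywhere from early S phase to metaphase. During S phase the genes for the replication machinery are expressed under E2F transcription factors. In G2 and M phase the genes for cyclin B, the kinetochore and the mitotic spindle follow, many of them through the DREAM complex, B-MYB, FOXM1 and NF-Y, which act at promoter elements called CHR and CCAAT box. Fetal heart muscle cells divide while they beat, and they take their sarcomeres apart during mitosis.

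The 6 genes of the rule were used only for the division. Their summed level was 88.8 CPM in cell G2, 231 in G6, 232 in G10, 475 in G1 and 814 in G28, the early cells. It was 850.2 CPM in G8, 1292 in G5, 1339 in G27, 2245 in G29 and 2384 in G25, the late cells. The division therefore ran between G28 at 814 CPM and G8 at 850.2 CPM. Of the marker genes of the label, Plk1 was between 0 and 22.7 CPM in early and between 25 and 75.8 CPM in late cells. Ccnb1 and Cdc20 overlapped between the sides: the early cell G28 had 274 CPM of Ccnb1 and 67.9 CPM of Cdc20, and the late cell G8 had 152 and 32.5 CPM. In these genes G28 was thus above the late cell next to it. In the 11 E14.5 negative cells the sum ran from 0 to 418 CPM with a median of 1.12 CPM.

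Total counts, given here in units of 1000000, were 8.4 to 38.5 per cell. Late cells together held 98.03 and early cells 60.05 of these units, with G27 giving 39.2% of the late and G28 giving 40.0% of the early counts. Early cells had 8018 to 10753 detected genes and late cells 6662 to 8714. The cells' titles fell into the number ranges 1 to 10 and 21 to 30, whose meaning the labels do not give. The low range held 4 early and 2 late cells with totals of 8.4 to 12.8, and the high range held 1 early and 3 late cells with totals of 16.8 to 38.5. Ratios within each range are given for the lists and named genes in which they differ most, and the part of depth and of title range in the results was not tested. The summed level of 12 cardiomyocyte markers was 15530 to 45365 CPM in all 10 cells. Of these markers 11 reached 10 CPM in at least 1 cell. The summed level of 11 endothelial markers, of which 5 were at 0 in all 10 cells, was 0 to 24.9 CPM in early and 0 to 1.41 CPM in late cells. It was 0 to 17.1 and 0 to 5.75 CPM for 8 fibroblast markers, 0 to 6.67 and 0 to 41.2 CPM for 3 leukocyte markers, and at most 0.0781 CPM for 4 red blood cell markers, of which 3 were at 0. Of 5 epicardial markers, Upk3b, Upk1b and Aldh1a2 were at 0 in every cell, while Tbx18 reached 621 CPM in G25 and Wt1 128 CPM in G2.

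Since each cell stands for itself and no animal is known, each side was treated as 1 sample. No test was made between them, the differences have no replicate check, and depth and amplification of a cell cannot be told apart from its stage. A gene's counts in the 5 late cells, and likewise in the 5 early cells, were added up and expressed as CPM. The ratio of late over early is given on the log2 scale after adding 0.5 count to both sums. The 95% interval of a ratio, like that of a CPM, covers counting error only, and reads of amplified RNA are not independent molecules. Of 14840 genes, 6339 had a mean of at least 10 CPM over the 10 cells and were compared. At least 2-fold higher in late cells were 1236 genes (19.5%), of which 642 were higher in both title ranges. At least 2-fold lower were 1278 (20.2%), of which 807 were lower in both. The title ranges hold the same cells as the summed ratio, so the counts in both ranges are no check of it. They were not made over all 6339 genes. The median log2 ratio over all 6339 genes was 0.01, and it was -0.26 within titles 1 to 10 and 0.42 within titles 21 to 30, against which the within-range medians below are to be read. With DESeq2 size factors the median of all genes was 0.36 higher, at 0.38, which gave 1783 genes higher and 948 lower, so that 65.3% instead of 49.2% of these genes were higher. Few of these genes separated the cells one by one: all 5 late cells were above all 5 early cells in 29 genes (0.457%), and below them in 50 genes (0.789%). The rule used this same contrast, so these shares describe the cells and are no evidence of a difference. Leaving out 1 cell makes the condition easier to meet and gave 36 to 60 genes above, the most without G28, and 69 to 149 below, the most without G8. From the lists used below, Nek2, Cenpa, Sgol2, Dlgap5, Fam83d, Rpl23a and Rpl36a were above in all late cells and Pcnt, E2f8 and Tbx5 below.

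Among the genes that separated the sides, those of the centromere and kinetochore were higher in late cells. Cenpa encodes the histone H3 variant that marks the centromere. Its early levels were 23.7, 13.1, 40.7, 85.4 and 129 CPM in G2, G6, G10, G1 and G28, and its late levels were 212, 251, 313, 261 and 604 CPM in G8, G5, G27, G29 and G25; the same order of cells is used below. The lowest late cell was thus above the highest early cell, and summed over cells the level was 333 CPM (329 to 336) against 76.1 CPM (73.9 to 78.3), a log2 ratio of 2.13 (2.08 to 2.17). The early side depended on G28, and without that cell the log2 ratio was 3.02. Sgol2, the shugoshin that protects cohesin at centromeres, was at 35.7, 141, 143, 102 and 44.1 CPM in early cells and at 442, 351, 160.2, 196 and 489.7 CPM in late cells. The log2 ratio was 1.77 (1.72 to 1.81), with G10 and G27 nearly touching. Knstrn, which encodes a kinetochore protein needed for timely separation of sister chromatids, was at 2.62, 36.2, 32.7, 39.5 and 19.1 CPM in early and at 81.4, 200.2, 127, 111 and 171 CPM in late cells. The late values were all more than the highest early value of Knstrn, and its log2 ratio was 2.43 (2.35 to 2.51). Nek2, a kinase of centrosome separation, had 29.3, 62.6, 84.2, 57.2 and 80.0 CPM in early and 213, 393, 105, 228 and 118 CPM in late cells. Its log2 ratio was 1.37 (1.32 to 1.42), and G5 had the highest and G27 the lowest level of the late cells.

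Both spindle genes that separated the sides bind microtubules or direct others to them. Dlgap5 encodes HURP, which stabilises the fibres between kinetochore and pole. It was at 3.45, 30.2, 30.8, 80.4 and 48.1 CPM in early cells and at 116, 162, 381, 289 and 357 CPM in late cells. This was a log2 ratio of 2.88 (2.82 to 2.94), and no cell left out moved it below 2.61. Fam83d, which brings a kinase and the kinesin Kif22 to the spindle, was at 40.4, 53.4, 54.6, 141 and 227 CPM in early and at 459, 877, 254, 563 and 698 CPM in late cells. The log2 ratio was 1.85 (1.81 to 1.88), and 2.74 without G28, the early cell whose level came within reach of the late cell G27.

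The other named genes that were higher in every late cell have roles in membranes, RNA, signalling and protein turnover. Arl6ip1, a shaping protein of the endoplasmic reticulum, was at 118 to 499 CPM in early and 820.2 to 1962 CPM in late cells, a log2 ratio of 1.73 (1.71 to 1.75). Pnrc2, a factor of mRNA decapping and nuclear receptor coactivation, was at 304 to 831 CPM in early and 1007 to 2291 CPM in late cells, a log2 ratio of 1.56 (1.55 to 1.58). Trim59, a ubiquitin ligase, was at 46.5 to 433 CPM against 564 to 1296 CPM, and Stk17b, a kinase of the death-associated family, at 58.2 to 193 CPM against 396 to 861 CPM. Their log2 ratios were 1.81 (1.79 to 1.83) for Trim59 and 2.405 (2.36 to 2.44) for Stk17b. Nup35, a nuclear pore protein, was at 11 to 41.5 CPM in early cells and, with less spread, at 106 to 147 CPM in late cells, with a log2 ratio of 2.06 (1.98 to 2.13). Arhgap18, which switches off RhoA, was at 17.1 to 57.1 CPM against 66.2 to 136 CPM, with a log2 ratio of 1.60 (1.53 to 1.68). Fbxo9, a subunit of a ubiquitin ligase, was at 0 to 37 CPM against 40.8 to 205 CPM. Its log2 ratio of 2.99 (2.89 to 3.09) was 2.32 without G28. In the E14.5 negative cells Fbxo9 had a median of 76.9 CPM and reached 170 CPM, so such levels were not particular to late cells. Nrn1, which encodes the membrane-anchored growth factor neuritin, was at 0 CPM in G2, G10 and G28, at 0.231 CPM in G6 and at 9.14 CPM in G1. In late cells Nrn1 was at 231, 161, 122, 182 and 542 CPM. Its summed level was 224 CPM (221 to 227) against 1.38 CPM (1.1 to 1.71), a log2 ratio of 7.33 (7.03 to 7.67) that was 6.60 without G28. Without G1 it was 12.16 (10.63 to 15.53), with 2 reads left in the early cells. In the E14.5 negative cells Nrn1 had a median of 0 CPM and reached 217 CPM in 1 cell.

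The size of these ratios differed between the title ranges. Within titles 1 to 10 the log2 ratio was 3.15 for Fam83d and 2.28 for Nek2, and within titles 21 to 30 it was 0.94 and 0.82. For Fbxo9 it was 1.87 and 6.22 in the same order. Nrn1 had 6.44 within titles 1 to 10 and no read in G28, the early cell of the other range.

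**Figure D1:**
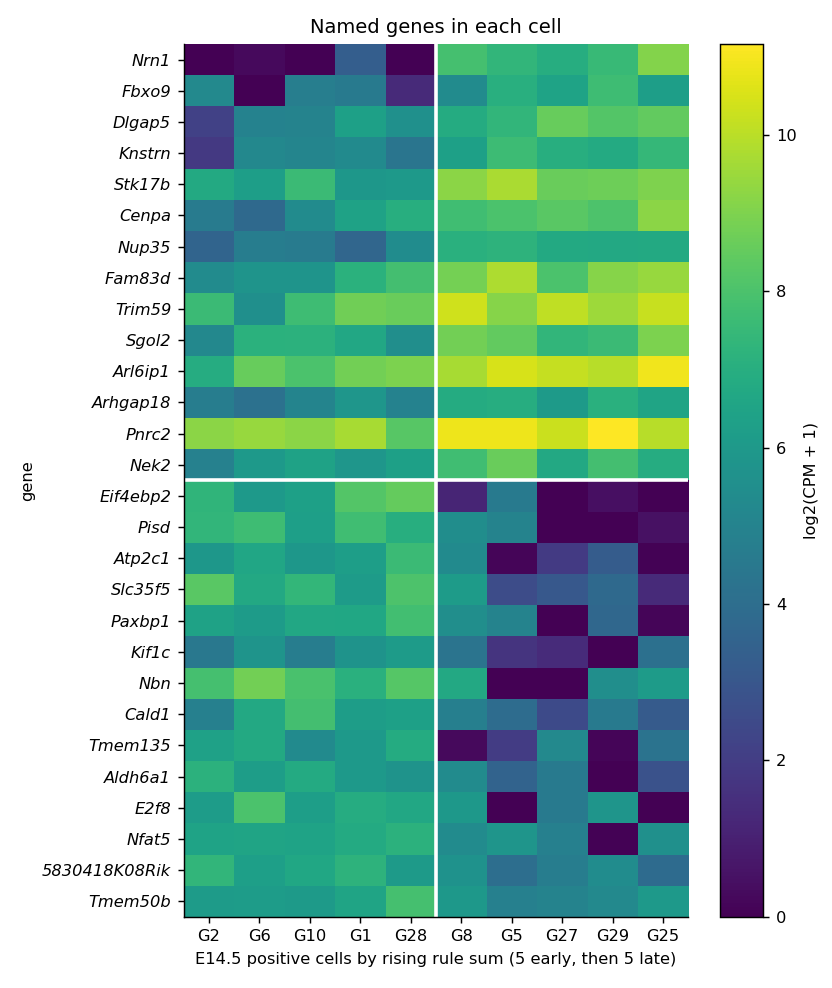
Level of the 28 genes named by rule in each of the 10 E14.5 positive cells, as log2(CPM + 1) in colour, with cells ordered by their rule sum. White lines divide the 5 early from the 5 late cells and the 14 higher from the 14 lower genes; several lower genes are at or near 0 in some late cells and not in others.

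The promoters of some of these genes are shown because they hold the elements through which late cycle and S phase genes are known to be controlled. The sequences are from RefSeq (GRCm38.p6, the build of mm10), from 250 bases before to 50 bases after the gene's start, 5′ to 3′ on the gene's strand. Capitals mark 3 kinds of motif, searched on both strands, so that a match on the other strand stands as its reverse complement. The CHR was searched as TTTGAA, and also in the variant form with letters TTCGAA. The CCAAT box was searched as the letters in its name. The E2F motif was searched as TTTGGCG, and also as its known variant TTTCCCG. None of these motifs contains another. Cenpa (chr5:30666636-30666935, plus strand), Fam83d (chr2:158767849-158768148, plus strand) and Prc1 (chr7:80294201-80294500, plus strand, 1 of its 2 windows) were higher in late cells by the summed counts. E2f8 (chr7:48881547-48881846, minus strand) and the replication gene Mcm3 (chr1:20820263-20820562, minus strand) were lower.
Cenpa: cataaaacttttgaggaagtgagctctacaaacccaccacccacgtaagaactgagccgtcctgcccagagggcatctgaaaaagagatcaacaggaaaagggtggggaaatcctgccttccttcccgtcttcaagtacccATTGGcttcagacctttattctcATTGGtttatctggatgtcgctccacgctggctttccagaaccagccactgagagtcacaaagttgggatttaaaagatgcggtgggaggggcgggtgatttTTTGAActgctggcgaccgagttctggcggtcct
Fam83d: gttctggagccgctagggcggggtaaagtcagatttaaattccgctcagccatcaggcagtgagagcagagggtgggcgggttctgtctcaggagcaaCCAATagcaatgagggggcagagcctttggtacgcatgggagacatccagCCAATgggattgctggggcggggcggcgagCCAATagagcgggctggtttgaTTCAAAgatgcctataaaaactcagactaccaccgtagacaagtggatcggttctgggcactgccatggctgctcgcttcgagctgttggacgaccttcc
Prc1: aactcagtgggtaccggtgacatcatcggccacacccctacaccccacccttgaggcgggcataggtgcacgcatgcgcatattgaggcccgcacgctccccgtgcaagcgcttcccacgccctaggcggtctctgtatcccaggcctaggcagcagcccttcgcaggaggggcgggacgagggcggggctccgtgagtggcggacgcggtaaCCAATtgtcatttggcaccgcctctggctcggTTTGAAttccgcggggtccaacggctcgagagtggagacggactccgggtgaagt
E2f8: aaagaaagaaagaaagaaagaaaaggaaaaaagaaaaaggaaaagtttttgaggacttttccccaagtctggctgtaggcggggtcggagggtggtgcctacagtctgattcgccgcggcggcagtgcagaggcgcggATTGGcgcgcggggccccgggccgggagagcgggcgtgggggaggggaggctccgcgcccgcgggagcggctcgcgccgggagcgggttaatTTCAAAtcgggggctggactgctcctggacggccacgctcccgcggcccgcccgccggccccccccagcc
Mcm3: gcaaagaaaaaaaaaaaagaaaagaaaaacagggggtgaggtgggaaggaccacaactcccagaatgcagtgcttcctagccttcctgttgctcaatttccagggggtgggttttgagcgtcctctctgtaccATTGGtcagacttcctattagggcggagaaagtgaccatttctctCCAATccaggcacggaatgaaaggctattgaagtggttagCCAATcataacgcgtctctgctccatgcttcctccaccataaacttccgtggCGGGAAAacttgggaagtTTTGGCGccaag
In Cenpa the CHR lay at bases 16 to 21 after the start, in Fam83d at 50 to 45 before it and in Prc1 at the start itself, each with 1 or more CCAAT boxes upstream. The E2f8 window also held a CHR, at 20 to 15 bases before the start, and its level went the other way. Mcm3 held 2 E2F motifs after the start and no CHR.

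Over the gene lists the CHR was most common in the late cycle genes, the E2F motif in the replication genes, and the CCAAT box was frequent in both. The share of promoter windows with a CHR was 19.2% of all 32851 windows, 76.7% of 30 windows of spindle genes, 50% of 42 windows of kinetochore genes and 45.5% of 22 windows of mitotic entry genes. It was 13.95% of 43 windows of replication genes and 8.57% of 35 windows of sarcomere genes. The E2F motif was in 41.9% of the replication windows, in 23.3% of the spindle windows and in 4.84% of all windows, and no sarcomere window held it. A CCAAT box was in 66.7% of spindle, 60.5% of replication and 37.4% of all windows. Within the 50 bases on either side of the start, 66.7% of spindle windows and 5.31% of all windows held a CHR. Of the 14 named genes higher in late cells 11 had an entry, with 13 windows of which 6 held a CHR, and of the 14 lower genes 13 had an entry, with 18 windows of which 3 did. Within the 50 bases on either side of the start the shares were closer. There 3 of the 13 windows of higher genes (23.1%) and 3 of the 18 of lower genes (16.7%) held a CHR. The 30 spindle windows came from 27 genes. Prc1, Psrc1 and Cep55 each gave 2 overlapping windows that both held a CHR. Promoters were matched by symbol or else by synonym. The window taken for Tpx2, on chromosome 17, may be that of another gene, and it held a CCAAT box and no CHR. These are matches of letters, and binding at them was not measured.

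**Figure D2:**
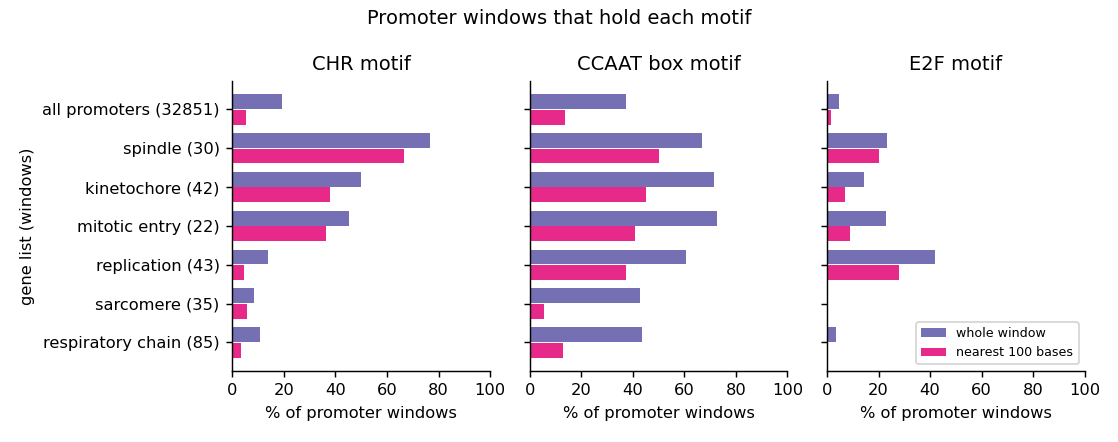
Share of promoter windows (x axis, %) that hold the CHR, CCAAT box or E2F letters, for all RefSeq promoters and for 6 gene lists, in the whole window and in the 100 bases around the start. CHR bars are longest for spindle genes (76.7%) and E2F bars for replication genes (41.9%).

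Spindle genes were the list with the highest median ratio of the 17 lists. Of its 30 genes outside the rule, 27 passed the level filter, with a median log2 ratio of 1.28 (0.91 to 1.75, an interval over the genes of the list) beside 0.01 over all genes. In this list 18 of 27 genes (66.7%) were at least 2-fold higher and none was 2-fold lower, where 19.5% and 20.2% of all genes were. Summed over the list, early cells had 705, 1341, 2264, 2848 and 3869 CPM and late cells 5503, 5363, 5446, 6477 and 8258 CPM. No late cell was as low as any early cell, and within the early side the list followed the order of the rule sum. The median was 1.59 within titles 1 to 10 and 0.80 within titles 21 to 30, where G28 is the only early cell, and 1.82 when G28 and G8 were both left out.

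The spindle genes differed in how early cells expressed them. Tpx2, the activator of Aurora A on spindle microtubules, was at 13.1, 13.1, 23.1, 83.5 and 21.8 CPM in early cells and at 97.2, 28.6, 124, 248 and 276 CPM in late cells. Its log2 ratio was 2.51 (2.44 to 2.58), and only G5 of the late cells was below the early cell G1. Nusap1, which bundles microtubules at chromosomes, was at 12.7, 63.4, 78.1, 167 and 191 CPM in early and at 609.9, 176, 287, 644 and 1057 CPM in late cells, a log2 ratio of 2.07 (2.03 to 2.10), with only G5 below G28. Kpna2, an importin that holds spindle factors inactive, had 1.78 to 32.6 CPM in early and 28.1 to 268 CPM in late cells, a log2 ratio of 2.61 (2.52 to 2.70). The chromokinesin Kif22 was at 3.45 to 65.5 CPM in early and at 34.1, 92.4, 153, 103 and 250.3 CPM in late cells, where only G8 was below G28. The motors Kif11 and Kif23 had log2 ratios of 1.26 (1.22 to 1.30) and 1.27 (1.23 to 1.31). The lowest ratios of the list were those of Numa1, which anchors microtubules at the poles, at -0.89 (-1.02 to -0.77), and of Kif15 at -0.66.

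Tubulins, which form the spindle microtubules and the interphase network, were measured with 11 of 12 listed genes, of which 9 passed. Their median log2 ratio was 0.69 (-0.64 to 1.87), 1.43 without G28, 1.24 within titles 1 to 10 and 0.24 within titles 21 to 30. At least 2-fold higher were 3 (33.3%) and none was lower, beside 19.5% and 20.2% of all genes. Tuba1c was at 110.2, 108, 150.2, 313 and 1158 CPM in early and at 938, 1022, 2060, 2460 and 3105 CPM in late cells, a log2 ratio of 1.87 (1.86 to 1.89). The early cell G28 was the only one inside the late range. Tubb4b was at 148 to 1705 CPM against 1071 to 5595 CPM, with a log2 ratio of 1.57 (1.56 to 1.59). Tubulin genes are near-identical, so reads could be divided among them differently.

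Of 27 genes of mitotic entry 23 passed, and their median log2 ratio was 0.43 (0.23 to 1.16). At least 2-fold higher were 7 (30.4%) and lower 1 (4.35%), beside 19.5% and 20.2% of all genes. The median was 0.60 within titles 1 to 10, but -0.14 within titles 21 to 30, and it was 1.06 without G28. Cdk1, the kinase that drives mitosis with cyclin B, shows how G28 differed from the other early cells: it was at 230.1, 476, 618 and 646 CPM in 4 early cells and at 3003 CPM in G28, above all late cells at 1416, 2213, 2603, 1717 and 1403 CPM. Ccna2, the cyclin of S and G2 phase, was likewise at 134, 373, 336 and 539 CPM in 4 early cells and at 814 CPM in G28, against 1223, 812, 737, 704 and 793 CPM in late cells. Cks2, a subunit of the cyclin-dependent kinases, was at 61.3, 137, 96.2, 204 and 549 CPM in early and at 650.1, 443, 757, 533 and 723 CPM in late cells, a log2 ratio of 1.16 (1.14 to 1.19). Cdc25c, the phosphatase that switches Cdk1 on, was at 2.98 to 32.1 CPM in early cells and at 102, 66.3, 155 and 193 CPM in 4 late cells, but at 0.624 CPM in G27. Foxm1 itself, at 8.07 to 40.6 CPM in early and 11.3 to 41.3 CPM in late cells, had a log2 ratio of 0.24 (0.13 to 0.35).

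The kinetochore list held genes of both directions. Of 43 genes, 39 passed, with a median log2 ratio of 0.09 (-0.21 to 0.83). At least 2-fold higher were 11 (28.2%) and lower 5 (12.8%), beside 19.5% and 20.2% of all genes. The median was 0.62 within titles 1 to 10, -0.10 within titles 21 to 30, 0.99 without G28 and -0.031 without G2. Birc5, survivin of the chromosomal passenger complex, was at 123, 235, 529 and 664 CPM in 4 early cells and at 1821 CPM in G28, against 853, 1646, 1843, 1988 and 1107 CPM in late cells. Cenpf, a large kinetochore protein, was at 12.6, 257, 276, 274 and 517 CPM against 440.4, 769.5, 379, 919 and 991 CPM, a log2 ratio of 0.95 (0.93 to 0.97). The checkpoint genes Bub1, Bub1b and Ttk had log2 ratios of 0.67, 0.15 and -0.74, and the outer kinetochore gene Ndc80 had -0.21. At the ends of the list, Zwint, which recruits the checkpoint motor, was at 139 and 148 CPM in G29 and G25 and at most 12.7 CPM in the other 8 cells. Nsl1, of the outer kinetochore, was at 308 CPM in G28 and at most 27.3 CPM in the other 9 cells, so that both ratios, 4.01 and -5.12, came from 1 or 2 cells. G28 held the highest level of all 10 cells for Ndc80, at 553 CPM, and for Ttk, at 169 CPM. The summed level of the list was 1561, 4306, 3705 and 3996 CPM in 4 early cells, 9994 CPM in G28 and 7087 to 11293 CPM in late cells.

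For the anaphase promoting complex and its partners, 16 of 21 genes passed and the middle log2 ratio was 0.29 (-0.44 to 0.96), with 3 (18.75%) at least 2-fold higher, near the 19.5% of all genes, and none lower. It was -0.14 within titles 1 to 10, 0.77 within titles 21 to 30, -0.13 without G27 and -0.02 with each cell weighted equally. Ube2c, the ubiquitin-conjugating enzyme that works with this complex, had the highest ratio of the list: it was at 81.7, 139, 276, 322 and 1073 CPM in early cells and at 747, 936, 2590, 2336 and 3290 CPM in late cells. The log2 ratio was 2.02 (2.01 to 2.04). Fzr1, the Cdh1 activator, had a log2 ratio of 1.67, while core subunits such as Anapc5 and Anapc1 had -0.87 and -0.67. Gmnn, the endogenous geminin gene, was at 78.4, 197, 78.1, 136 and 182 CPM in early and at 111, 84.2, 213, 29.7 and 97.8 CPM in late cells. The sides overlapped throughout for Gmnn, with a log2 ratio of -0.17 (-0.21 to -0.13).

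Among 29 cytokinesis genes 22 passed, their median being 0.32 (-0.29 to 0.80) on the log2 scale, with 4 (18.2%) at least 2-fold higher, a share near the 19.5% of all genes, and none lower. Ect2, the exchange factor that activates RhoA at the cleavage site and the gene in the title of the study, was at 36.5, 651, 56.4, 348 and 269 CPM in early cells. In late cells Ect2 was at 665, 1332, 465.6, 585 and 535 CPM. Only the early cell G6 reached the late range, and the log2 ratio was 1.20 (1.17 to 1.22), with 1.83 within titles 1 to 10 and 0.93 within titles 21 to 30. Its partner Racgap1 had 14 to 91.6 CPM in early and 62.1 to 124 CPM in late cells, a log2 ratio of 0.80 (0.75 to 0.86). Prc1, which bundles the central spindle and is also in the spindle list, was at 25.1, 29.4, 105, 110.1 and 259 CPM in early and at 216, 200.3, 437, 564 and 659.9 CPM in late cells, a log2 ratio of 1.63 (1.60 to 1.66). Anln, the scaffold of the contractile ring, overlapped, at 329 to 1451 CPM against 363 to 1764 CPM. The ESCRT machinery cuts the last bridge between daughter cells, and those of its genes that passed had log2 ratios between -0.92 for Pdcd6ip and 0.59 for Chmp2a.

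Condensin, cohesin and other chromosome genes, 23 of 25 of which passed, were at a median of -0.21 (-0.86 to 0.58) on the log2 scale, with 5 (21.7%) at least 2-fold higher and 5 lower, shares near the 19.5% and 20.2% of all genes. The sign depended on the choices: the median was 0.35 and 0.01 within the title ranges, 0.06 without G1, 0.17 with each cell weighted equally and 0.15 with DESeq2 size factors. Rad21, the cohesin subunit that separase cuts at anaphase, was at 453, 293, 507, 915 and 482 CPM in early and at 705, 934, 2481, 1934 and 1855 CPM in late cells. Its log2 ratio was 1.85 (1.84 to 1.87), mostly from the late cells of the high title range, and 0.56 within titles 1 to 10. Top2a, the topoisomerase that untangles sister chromatids, had a log2 ratio of 1.19 (1.17 to 1.21) with early cells at 94.5 to 609 CPM and late cells at 287 to 1473 CPM. Mki67, the coat protein of mitotic chromosomes, was at 77.5 to 1225 CPM in early and 228 to 1825 CPM in late cells, with a log2 ratio of -0.42 (-0.43 to -0.40).

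Genes of the nuclear lamina, envelope and pore, which are dismantled at mitosis and rebuilt after it, were at a median of 0.97 (0.08 to 1.34) on the log2 scale, with 22 of 25 genes passing. Of these, 11 (50%) were at least 2-fold higher in late cells and 1 (4.55%), Syne1, a giant linker of the nucleus, was lower. The shares of all genes were 19.5% and 20.2%. The median was 0.24 within titles 1 to 10, 1.62 within titles 21 to 30 and 0.41 without G28. Lbr, the lamin B receptor, was at 28.2 to 119 CPM in early and 22.5 to 287 CPM in late cells, a log2 ratio of 1.04 (0.99 to 1.09). Sun2, of the link between nucleus and cytoskeleton, was at 3.38 to 18.4 CPM in early cells and at 87.4, 37.1 and 44.9 CPM in the late cells G27, G29 and G25, but at 0 CPM in G8.

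**Figure D3:**
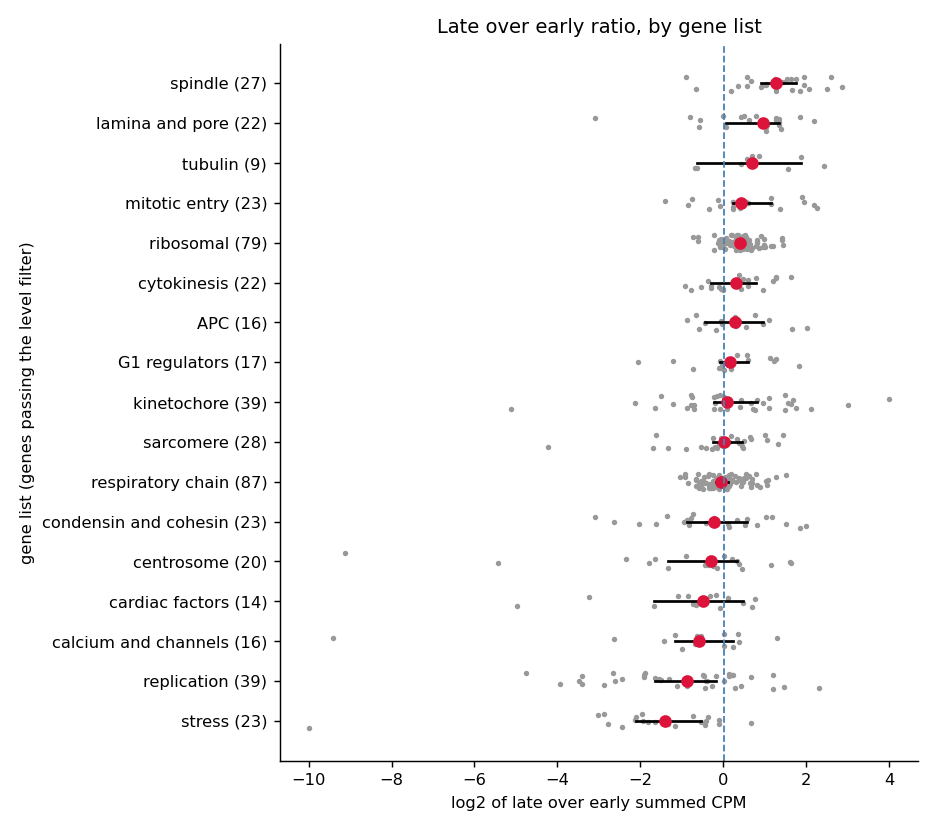
Log2 ratio of late over early summed CPM (x axis) for the genes of 17 lists. Grey points are genes that passed the level filter, red points list medians, black lines 95% intervals over the genes of a list, and the dashed line is the median of all genes at 0.01; the spindle list is the highest at 1.28 and the stress list the lowest at -1.41.

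Replication genes were lower in late cells. Of 49 genes, 39 passed, with a median log2 ratio of -0.87 (-1.65 to -0.17), and 17 of 39 (43.6%) were at least 2-fold lower and 4 (10.3%) higher, beside 20.2% and 19.5% of all genes. The median was -1.21 within titles 1 to 10 and -0.67 within titles 21 to 30, and -0.47 without G6. Pcna, the sliding clamp of the DNA polymerases, was at 3405, 7655, 1719, 1544 and 2048 CPM in early cells and at 2455, 24.9, 960.0, 120.1 and 318 CPM in late cells. Only G8 of the late cells was within the early range, and the log2 ratio was -1.90 (-1.92 to -1.89). Pola1, the catalytic subunit of the priming polymerase, was at 40.6, 344, 143, 27.5 and 124 CPM in early and at 70.7, 0, 6.84, 0 and 0 CPM in late cells, a log2 ratio of -3.48 (-3.57 to -3.39). Orc6 of the origin recognition complex was at 133, 335, 393, 105 and 83.5 CPM against 112, 0, 25.7, 0.0491 and 0.0597 CPM. Mcm3, of the replicative helicase, was at 81.5, 392, 80.0, 164 and 106 CPM against 105, 37.3, 17.7, 0 and 0 CPM, with a log2 ratio of -2.60 (-2.67 to -2.54). In these genes G8, the late cell next to the division, kept a level like that of early cells. Its Mcm4 level was 1118 CPM, and its Dtl level of 191 CPM compared with at most 0.727 CPM in the other late cells.

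Ccne1, the cyclin of the entry into S phase, was at 2.26, 15.2, 4.16, 53.8 and 58.7 CPM in early and at 7.73, 0, 0.442, 0.442 and 0 CPM in late cells. Not every gene of the list was lower: Gins4, of the helicase complex, had a log2 ratio of 2.31 (2.22 to 2.401) and was at 162 CPM in G27. Rrm2, the nucleotide reductase subunit, was at 431, 799, 465, 433 and 971 CPM in early and at 297, 138, 963, 232 and 161 CPM in late cells, a log2 ratio of -0.48 (-0.50 to -0.46). Over the list, G6 had the highest summed level, 16826 CPM, and G5 the lowest, 946 CPM. The early cells had 4527 to 16826 CPM and the late cells 946 to 7073 CPM, with G8 and G27 inside the early range. In the E14.5 negative cells the same sum ran from 485 to 24764 CPM with a median of 2076 CPM.

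**Figure D4:**
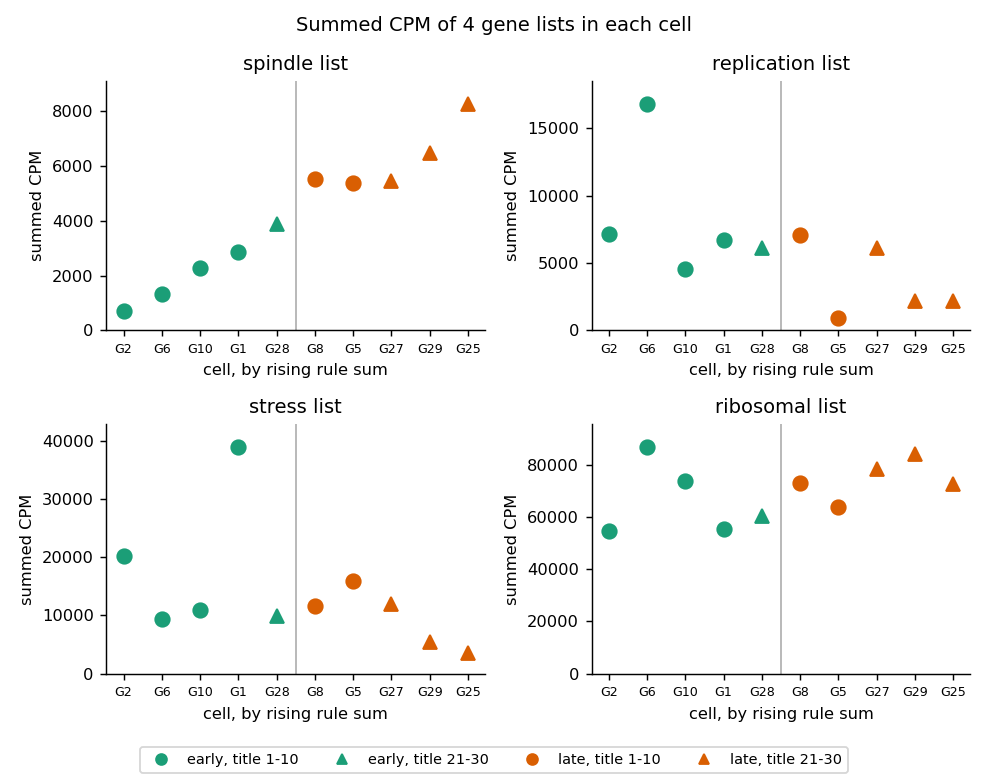
Summed CPM (y axes, from 0) of the spindle, replication, stress and ribosomal lists in each E14.5 positive cell, ordered by rule sum, with early cells green, late cells orange and the title range shown by the shape. The spindle sums of late cells (5363 to 8258 CPM) lie above those of early cells (705 to 3869 CPM), and the other lists overlap between the sides.

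Of the named genes lower in every late cell, E2f8 acts in the cell cycle and Nbn in the repair of DNA. E2f8, an E2F repressor that is itself made in S phase, was at 70.2, 256, 75.4, 119.7 and 102 CPM in early and at 60.7, 0, 23, 56.2 and 0 CPM in late cells. The log2 ratio was -2.04 (-2.11 to -1.98), with G8 and G29 close to the early range. Nbn, of the complex that senses double-strand breaks, was at 236, 437, 250.1, 133 and 297 CPM in early and at 107, 0, 0.026, 45.1 and 69.7 CPM in late cells. Its log2 ratio of -2.97 (-3.02 to -2.92) was -2.25 without G27. Over the list of G1 and E2F regulators, E2f8 included, the median log2 ratio was 0.17 (-0.07 to 0.60) over 17 of 24 genes. At least 2-fold higher were 4 (23.5%), near the 19.5% of all genes, and lower were 2 (11.8%), beside 20.2% of all genes. The median of this list was -0.02 without G6.

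The other named genes that were lower act in translation, membranes and metabolism. Eif4ebp2, which holds back cap-dependent translation, was at 157, 64.2, 80.4, 286 and 372 CPM in early and at 1.25, 22.4, 0, 0.393 and 0 CPM in late cells. Its log2 ratio of -6.59 (-6.78 to -6.40) was -9.73 without G5, -5.87 without G27 and -5.89 without G28. Pisd, the mitochondrial enzyme that makes phosphatidylethanolamine, was at 76.8 to 214 CPM in early and at 43.9, 30.8, 0, 0 and 0.418 CPM in late cells, with a log2 ratio of -4.06 (-4.16 to -3.96). Atp2c1, the calcium and manganese pump of the Golgi, was at 59.3 to 192 CPM against 39.9, 0.104, 2.68, 8.45 and 0.0597 CPM, with a log2 ratio of -3.90 (-4.01 to -3.79). Without G8, the late cell with the highest level of both, the log2 ratio was -5.37 for Pisd and -5.20 for Atp2c1. Without G27 that of Pisd was -3.34, and without G28 that of Atp2c1 was -3.16. Cald1, caldesmon of the actin filaments, was at 28.3, 107, 223, 72.1 and 79.7 CPM in early and at 27.6, 14.3, 4.71, 23.3 and 8.23 CPM in late cells, so that G2 and G8 nearly met. Its log2 ratio was -2.92 (-3.01 to -2.84).

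The title ranges differed here too: the log2 ratio within titles 1 to 10 and within titles 21 to 30 was -3.81 and -11.69 for Eif4ebp2, -2.08 and -10.31 for Pisd, and -1.66 and -5.71 for Atp2c1.

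The remaining lower genes were at moderate levels in every early cell. Kif1c, a motor of vesicle transport, was at 21.2 to 68.6 CPM in early and 0 to 18.4 CPM in late cells, with a log2 ratio of -3.05 that was -3.67 without G25. Slc35f5, a carrier of the solute family, was at 68.5 to 316 CPM against 1.49 to 68 CPM, with a log2 ratio of -3.72 that was -4.77 without G8. Paxbp1, a partner of PAX transcription factors, was at 69.7 to 219 CPM against 0 to 44.3 CPM. Its log2 ratio of -3.62 was -4.44 without G8, -2.90 without G27 and -2.96 without G28, and it was -1.20 within titles 1 to 10 and -6.02 within titles 21 to 30. Tmem135, a membrane protein of mitochondria and peroxisomes, was at 39.4 to 115 CPM against 0.0982 to 37.6 CPM, with a log2 ratio of -2.29 that was -3.97 without G27, and -5.67 and -2.31 within the low and the high title range. Aldh6a1, of valine breakdown, and Nfat5, the transcription factor of osmotic stress, had log2 ratios of -2.29 (-2.37 to -2.21) and -1.92 (-1.98 to -1.86). For 5830418K08Rik the log2 ratio was -1.76 (-1.82 to -1.69), and for Tmem50b it was -1.73 (-1.79 to -1.68) and -0.84 without G28. Several late cells were at or near 0 in these genes while others were not, and in a single cell a read count of 0 does not show that a gene is silent.

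Of 25 centrosome genes 20 passed, and the median was -0.29 (-1.34 to 0.34) on the log2 scale. At least 2-fold higher were 3 (15.0%) and lower 6 (30%), beside 19.5% and 20.2% of all genes. The median was 0.14 within titles 1 to 10, -0.997 within titles 21 to 30 and 0.07 with DESeq2 size factors. Pcnt, pericentrin of the matrix that nucleates microtubules, was at 64.3, 43.4, 2.08, 45.6 and 22.2 CPM in early cells. In late cells it was at 0 CPM except for 0.13 CPM in G27, and its summed levels were 0.051 CPM (0.0166 to 0.119) against 31.2 CPM (29.8 to 32.7).

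For the contractile apparatus the list median was near that of all genes over all cells, but below it within each title range. Of 31 sarcomere genes, 28 passed, with a median log2 ratio of 0.02 (-0.23 to 0.46). At least 2-fold higher were 3 (10.7%) and lower 4 (14.3%), beside 19.5% and 20.2% of all genes. The median was -0.88 within titles 1 to 10, where both late cells had the lowest sums, and 0.29 within titles 21 to 30. Over all genes these medians were -0.26 and 0.42. In both ranges 12 of the 28 genes were lower and 0 were higher. This count was not made over all genes, so it is no result about sarcomere genes. Without G27 the median was -0.11. The summed sarcomere level was 41986, 30670, 42944, 35396 and 48845 CPM in early and 22788, 27989, 50281, 33389 and 59186 CPM in late cells. Tnnt2, troponin T, was at 3425, 1697, 1583, 3934 and 7335 CPM in early and at 922, 871, 5877, 3563 and 5616 CPM in late cells. Ttn, the giant spring titin, had a log2 ratio of -0.05 (-0.06 to -0.04), and Actc1, cardiac actin, one of 0.13 (0.12 to 0.13). Calcium cycling, channel and junction genes had a median of -0.58 (-1.16 to 0.23) over 16 of 20 genes, and cardiac transcription factors one of -0.48 (-1.67 to 0.47) over 14 of 20. Tbx5, a T-box factor of the ventricle, was at 3.33, 33.4, 7.23, 52.1 and 1.83 CPM in early and at 0.39, 0, 0.416, 0 and 1.49 CPM in late cells.

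Of 94 nuclear-encoded respiratory chain genes 87 passed, with a median of -0.05 (-0.17 to 0.12) on the log2 scale. The sign depended on the choices: it was 0.01 with TMM library sizes, 0.31 with DESeq2 size factors and 0.54 without G28, whose summed level of 115473 CPM was the highest of the 10 cells. Relative to the median of all genes the list was at -0.07 both in the main result and with DESeq2 factors. Within titles 1 to 10 its median was -0.22 and within titles 21 to 30 -0.37, where all genes had -0.26 and 0.42. In both ranges 38 of the 87 genes were lower and 6 higher. This count was not made over all genes, so it is no result about respiratory genes. Ribosomal protein genes had a median of 0.40 (0.31 to 0.49) over 79 of 83 genes. At least 2-fold higher were 6 (7.59%) and none was lower, beside 19.5% and 20.2% of all genes. The median of these ribosomal genes was, however, -0.10 within titles 1 to 10 and 0.31 within titles 21 to 30. Their summed level overlapped, at 54738 to 86907 CPM in early and 63902 to 84297 CPM in late cells. Rpl36a was at 1708 to 2554 CPM against 2818 to 4432 CPM and Rpl23a at 459 to 669 CPM against 727 to 1089 CPM, with log2 ratios of 0.42 (0.42 to 0.43) and 0.56 (0.54 to 0.57). Ribosomal genes have many near-identical copies that can share reads.

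Immediate early and stress genes, which respond within minutes to dissociation of a tissue, had the lowest median, -1.41 (-2.11 to -0.53) over 23 of 24 genes. Of these, 15 (65.2%) were at least 2-fold lower in late cells and none was 2-fold higher, beside 20.2% and 19.5% of all genes. Without G28 the median was -2.05. The title ranges moved with this list: for the cells of titles 21 to 30 against those of titles 1 to 10 the median was -2.10, and late against early had -0.95 within titles 1 to 10 and -0.31 within titles 21 to 30. Other lists moved between the ranges too. Titles 21 to 30 against 1 to 10 gave 1.04 for tubulin, 0.90 for kinetochore, 0.87 for spindle, 0.76 for respiratory and 0.65 for ribosomal genes. The same median was -0.57 for replication, -0.54 for centrosome and -0.47 for G1 regulator genes, and -0.06 over all genes. The part of the title range in the differences was not tested beyond these values, and the high range holds 1 early cell. Fos was at 3209, 32.4, 899.9, 11710 and 502 CPM in early and at 629, 1378, 178, 1.23 and 129 CPM in late cells. Egr1 was at 14012 CPM in G1 and at 17.2 CPM in G25, and the sides overlapped in between. Btg2, an antiproliferative gene of this class, was at 2045, 498, 563, 1400 and 99.9 CPM in early and at 202, 174, 126, 11.4 and 0.119 CPM in late cells, with only G28 inside the late range. G1 alone had a summed level of 38925 CPM for the list, and the other 9 cells had 3602 to 20269 CPM. Hspa1a, an inducible heat shock gene with a near-identical copy, was above 10 CPM only in G2 and G1.

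The P5 positive cells were not used by the division, but 1 of them, L2P10, was set apart by the same rule sum. The counts below therefore describe this cell and are no independent check of the difference between late and early cells. Of the 6 P5 positive cells, L2P10 had a rule sum of 4.93 CPM and the 5 others had 1187 to 3113 CPM. L2P12, one of the 5, had 7.24 CPM of Tnnt2 where the other P5 positive cells had 1390 to 7576 CPM, which goes against its label as a cardiomyocyte. Counts are therefore given with and without it. Of the 14 named genes higher in late E14.5 cells, 11 were lower in L2P10 than in all 5 other cells, and the same number without L2P12. Over all 6339 genes 12.4% were lower in L2P10, and 14.8% without L2P12. The exceptions were Nrn1, Fbxo9 and Arhgap18. Cenpa was at 11.9 CPM in L2P10 and at 1015, 762, 384, 1127 and 986 CPM in L1P5, L2P3, L2P7, L2P8 and L2P12. Knstrn was at 0.159 CPM in L2P10 and at 999, 371, 114, 168 and 107 CPM in the others. Nrn1 was at 0.955 CPM in L2P10 and at 0 CPM in all 5 others, so that the gene with the highest ratio at E14.5 was hardly read at P5.

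By list, 21 of 27 spindle genes, 30 of 39 kinetochore genes and 17 of 23 mitotic entry genes were lowest in L2P10, and so were 8 of 39 replication genes. These counts were the same without L2P12. The summed replication level was nevertheless lowest in L2P10 too, at 429 CPM against 3309 to 8867 CPM in the others. L2P10 was thus low in genes of both stages, unlike the early E14.5 cells, which had 4527 to 16826 CPM of the replication list. Its contrast with the other P5 cells can therefore not be read as early against late stages, and what it reflects was not tested. Of sarcomere genes 14 of 28 were higher in L2P10 than in all 5 others and again without L2P12, beside 9.43% of all genes, or 13.1% without L2P12. Their summed level was 117425 CPM in L2P10 and 149700 CPM in L2P8, against 676 to 75699 CPM in the other 4 cells. Of respiratory chain genes 25 of 87 were higher, 27 without L2P12. The summed respiratory level of L2P10 was 221255 CPM, against 26821 to 199654 CPM in the others. Of the 14 named genes lower in late E14.5 cells, 1 was higher in L2P10 than in all 5 others and 1 was lower than in all 5, and without L2P12 these counts were 2 and 2. L2P10 is a single cell with low levels of cycle genes and a cardiomyocyte marker sum of 85841 CPM. In 4 of the others the marker sum was 112 to 57876 CPM. L2P8 had a higher marker sum, 117669 CPM, together with a rule sum of 2643 CPM. The part of the marker level in the result was not tested.

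**Figure D5:**
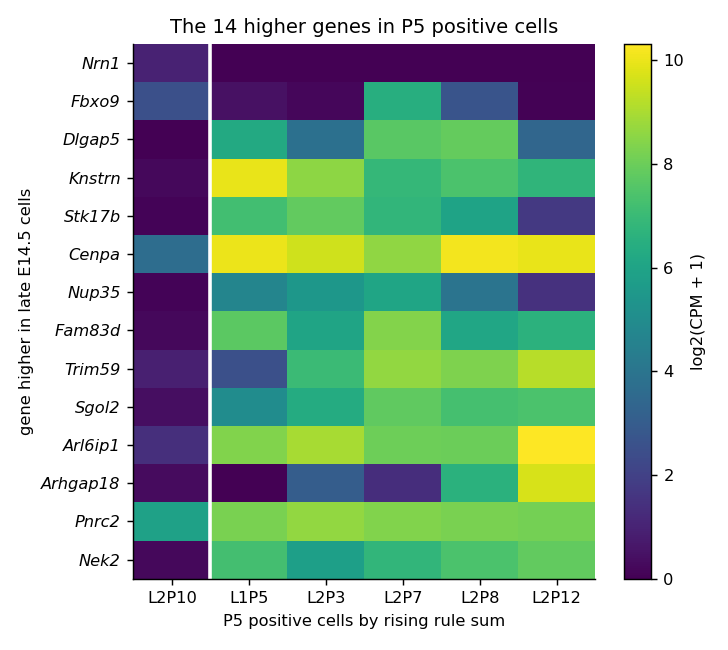
Level of the 14 genes higher in late E14.5 cells, as log2(CPM + 1) in colour, in the 6 P5 positive cells ordered by rule sum. The white line sets apart L2P10 (rule sum 4.93 CPM), in which 11 of the 14 genes are lower than in all other cells; Nrn1 is near 0 in every P5 cell.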

How the data were processed

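Single cells from dissociated ventricles were sorted, their mRNA was amplified as antisense RNA and sequenced from TruSeq libraries, per the labels' protocols. The authors deposited a table of raw read counts per gene and cell. The submitters' processing notes name CASAVA 1.8.2, STAR 2.4.0j, HTSeq 0.6.1p1 and the mm10 build, without the settings. Of 14862 gene rows, 13445 matched a current symbol, 559 were matched after their altered spelling was restored, 793 by a synonym, 43 by none, and 22 held dates in place of names and were not analysed here. Genes of the lists without a matching row were not analysed here either. Each count was divided by the total of its cell and multiplied by 1000000 (CPM), and each cell was its own library, so no doublet caller was run.

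Counts were added over the 5 cells of each side and divided by the summed total of that side, with exact Poisson 95% intervals, and the log2 ratio has an exact binomial (Clopper-Pearson) interval. An interval of a list median is taken from order statistics over its genes. The script was tested on simulated data. Named in each direction are the 14 genes with the largest ratio among those whose sides do not overlap, with at least 50 CPM in the median cell of the higher side and no cell with over 50% of that side, and also any gene of the lists that passed the level filter. The members and lists were chosen with earlier results of these data known.

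Alternatives were equal weight for each cell, TMM (edgeR 4.0.16) and DESeq2 1.42.0 scaling, other level filters, 1 CPM added, thinning, 4 against 4 cells, division by mean rank, each title range alone, each cell left out and, for promoters, the 100 bases around the start. Leaving out the P5 cell with the lowest Tnnt2 was chosen after seeing the data. Python 3.11.15, scipy 1.17.1 and R 4.3.3 were used.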

Additional observations from a re-analysis of the deposited data

Results flagged for a closer look

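Over the 10 E14.5 positive cells together, the gap of the highest or lowest cell to its neighbour was divided by the whole range of the 10, and the values below exceeded Dixon's 95% limit for 10 values, 0.466. Of 53 measures 18 did so. About 1 in 20, or 2.65 of 53, would do so by chance only if the values were normally distributed. That was not tested for these levels and counts of single cells, so no excess over chance is claimed. These measures share cells, and several of the genes were named for a difference between the sides.

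Of the late cells, G27 had the highest total of the 10 cells, 38465225 counts. G8 had the highest centrosome sum, 1938 CPM, and the highest red blood cell marker sum, 0.0781 CPM. G25 had the highest epicardial marker sum, 621 CPM, the highest leukocyte marker sum, 41.2 CPM, and the highest levels of Nrn1, 542 CPM, and Cenpa, 604 CPM.

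Of the early cells, G6 had the highest replication sum of the 10 cells, 16826 CPM, and the highest level of E2f8, 256 CPM. G2 had the highest sum of cardiac transcription factors, 5710 CPM. G1 had the highest stress sum, 38925 CPM, endothelial marker sum, 24.9 CPM, and fibroblast marker sum, 17.1 CPM. G28 had the highest respiratory sum, 115473 CPM, and the highest levels of Atp2c1, 192 CPM, Paxbp1, 219 CPM, and Tmem50b, 233 CPM. G10 had the highest level of Cald1, 223 CPM.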

How the results depend on the processing

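The 28 named genes were chosen because the late and early cells do not overlap in them, which by itself fixes their direction when cells are left out or weighted otherwise, so their unchanged direction is no sign of stability. Genes at least 2-fold higher numbered 2540 without a level filter, 421 at 50 CPM or more and 2541 within titles 21 to 30; genes lower numbered 3903 without a filter and 407 at 50 CPM or more. Genes above in all late cells numbered 70 with DESeq2 factors, 99 with 4 against 4 cells, 400 within titles 1 to 10 and 1414 within titles 21 to 30. Genes below numbered 23, 277, 762 and 1479 in the same order, 86 without a filter and 24 at 50 CPM or more. Fewer cells make this condition easier to meet.

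With 4 against 4 cells the medians were 1.04 for kinetochore, 1.82 for spindle, 0.47 for sarcomere, 0.58 for respiratory, 0.65 for ribosomal and -2.41 for stress genes. With DESeq2 factors they were 0.31 for respiratory and 0.76 for ribosomal genes. Within titles 1 to 10 they were -0.88 for sarcomere, -0.22 for respiratory and -0.10 for ribosomal genes. Within titles 21 to 30 they were -0.14 for mitotic entry, 0.80 for spindle, 1.62 for envelope, 0.62 for G1 regulator, -0.37 for respiratory, 0.31 for ribosomal and -0.31 for stress genes. The cause was not tested.

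Leaving out each cell gave 1167 to 1476 genes higher, 1256 to 1526 lower, 36 to 60 above and 69 to 149 below in all late cells. Medians ran from -1.18 to -0.47 for replication, 0.30 to 1.06 for mitotic entry, -0.031 to 0.99 for kinetochore, 1.12 to 1.75 for spindle, 0.11 to 0.55 for cytokinesis, -0.13 to 0.51 for anaphase promoting complex, -0.41 to 0.06 for chromosome and -0.47 to -0.08 for centrosome genes. They ran from 0.41 to 1.12 for envelope, -0.02 to 0.39 for G1 regulator, 0.53 to 1.43 for tubulin, -0.11 to 0.37 for sarcomere, -0.68 to -0.39 for excitation, -0.59 to -0.26 for cardiac transcription factor, -0.18 to 0.54 for respiratory, 0.29 to 0.57 for ribosomal and -2.05 to -1.14 for stress genes. The division by mean rank gave the same cells. No paired analysis was possible because the result comes from no test and each side is 1 sample. A level near 0 CPM in a single cell can be a gene missed in amplification.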
